A study of Bos taurus with 24 samples.

Results

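The genes described here encode AP-1 transcription factors of the FOS and JUN families and their relatives ATF3 and BATF3. Their rows were taken from the expression tables by gene symbol, as those named FOS, FOSB, FOSL2, JUN, JUNB, JUND, ATF3 and BATF3, which gave 8 of the 27550 rows with a gene symbol and of 59846 rows in all. Each symbol stood on 1 row, and none of these rows overlapped another. The study asked whether dermal fibroblasts of Holstein, which are dairy cattle, and of Angus, which are beef cattle, differ in their expression response to lipopolysaccharide (LPS), the endotoxin of Gram-negative bacteria. RNA-Seq was performed on 24 samples in 6 groups of 4, which were Holstein and Angus cultures at 0 h (before LPS) and at 2 h and 8 h after LPS at 100 ng/ml was added. Each of the 8 cultures was a primary line from the shoulder skin of 1 heifer of about 19 months, expanded in serum-containing medium and revived from cryopreservation, and it was sampled at all 3 hours with duplicate wells pooled. Cultures without LPS at 2 h and 8 h were not analysed here, so LPS and time in culture cannot be told apart.

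AP-1 is a dimer of basic leucine zipper (bZIP) proteins that binds a short DNA element in the promoters and enhancers of many inflammatory, growth and matrix genes. JUN proteins can pair with themselves or with FOS proteins, while FOS proteins need a JUN partner. Several of the genes are immediate-early genes, whose transcripts appear within minutes of stimulation and decay quickly, and Toll-like receptor 4, the LPS receptor, reaches them through the MAP kinase cascades.

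Total counts per sample ranged from 51014538 to 104406293, and 3 counts, used as the detection limit, stood for 0.0287 to 0.0588 counts per 1000000 (CPM). Levels are CPM scaled between libraries by trimmed mean of M-values (TMM). All 11 fibroblast markers reached 1 CPM in every sample. Of 6 leukocyte markers only CD68, which fibroblasts can also express, reached 1 CPM in any sample, and CD3E stayed at or under 0.105 CPM. The leukocyte sum moved with hour and breed, from 2.01 to 3.28 CPM in Holstein and 3.36 to 5.15 CPM in Angus before LPS to 4.51 to 5.59 and 4.84 to 5.05 CPM at 2 h and 3.11 to 5.59 and 4.65 to 5.20 CPM at 8 h, and its part in the changes below was not tested. Of 4 endothelial markers 2 did so in at least 1 sample, and of 5 melanocyte markers 2, PMEL and MITF. The summed keratinocyte markers reached 12.2 to 14.6 CPM in Holstein animal 1, against 0.788 to 1.59 CPM in the other Holstein animals and 0.447 to 0.913 CPM in Angus. The highest level over all samples was 10.2 CPM for KRT5, 2.75 CPM for KRT14 and 1.18 CPM for DSP, while KRT1 was at 0 CPM. In 4 samples, Angus animal 4 and Holstein animals 2 and 4 at 0 h and Angus animal 3 at 2 h, the collagen gene COL1A1 showed 66.2 to 67.1 bases of coverage for each count, where the remaining 20 showed 111.8 to 119, and these are called the samples with other counting of COL1A1. For the 6 AP-1 genes with enough counts at every hour, the covered bases per count were 85.7 to 96.7 in these 4 and 84.1 to 96.8 in the rest.

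A gene was called when edgeR's likelihood-ratio test gave a false discovery rate (FDR) under 0.05, the change reached 2-fold and its average level exceeded 1 CPM. A gene was tested where it reached 1 CPM in at least 50% of the samples compared. BATF3, which heterodimerizes with JUN proteins and is known from dendritic cells, was never tested. Its row held 20 counts over all 24 samples, with 0 to 4 counts in a sample, so that its level was at most 0.0522 CPM and no difference was detectable at this depth. FOSB passed this filter only through its 2 h samples and was tested only where these entered, since just 2 samples at 0 h and none at 8 h reached 1 CPM. The other 6 genes were tested in every comparison.

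The samples are bulk RNA, in which fewer expressing cells and less RNA per cell cannot be told apart. At 2 h after LPS, with the breeds combined, 3 of the 7 AP-1 genes tested were called, FOSB and JUNB higher and FOS lower, where 2.82% of all 20157 rows were called. FOSB, FOS and JUNB were also called in Holstein (3 of 7, against 3.14% of all rows), and FOSB and JUNB in Angus (2 of 7, against 2.98%). From 0 h to 8 h, FOS alone was called with the breeds combined (1 of 6, against 1.42% of all rows) and in Holstein (1 of 6, against 2.51%). None was called in Angus, where 0.863% of all rows were called and 3 of the 6 genes had an unadjusted p under 0.05, and neither edgeR's F test nor DESeq2 called any. A fit with the animal as a replicate block called none in Angus either. In it FOS (-0.92, FDR = 3.8e-05), JUNB (0.55, FDR = 1.3e-05), FOSL2 (-0.29, FDR = 0.0039) and JUN (-0.25, FDR = 0.017) passed the FDR limit, while JUND and ATF3 did not. From 2 h to 8 h, FOSB, JUNB and JUND fell with the breeds combined (3 of 7, against 2.76% of all rows) and in Holstein (3 of 7, against 3.91%), and FOSB in Angus (1 of 7, against 2.36%). The counts out of 7 include FOSB, which passed the filter only through its 2 h samples, where it is high. The 2 h and 8 h comparisons share their 0 h samples and are therefore not independent.

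In most comparisons more of the AP-1 genes passed the FDR limit without the fold limit, as did more rows of the tables. Between hours, the counts out of 7 again include FOSB, which was tested only through its 2 h samples. From 0 h to 2 h these were 5 of 7 genes with the breeds combined (22.0% of all rows), 6 of 7 in Holstein (17.2%) and 5 of 7 in Angus (13.8%). From 0 h to 8 h they were 3 of 6 combined (12.8% of all rows) and 3 of 6 in Holstein (14.7%). In Angus none of 6 passed from 0 h to 8 h in the fit without the animal, where 804 of 20617 rows did. From 2 h to 8 h they were 4 of 7 combined (23.8%), 6 of 7 in Holstein (23.3%) and 4 of 7 in Angus (12.2%). Between the breeds 1 of 6 passed at 0 h (13.8% of all rows), 3 of 7 at 2 h (20.1%) and 1 of 6 at 8 h (16.5%), so the shares at 0 h and 8 h were near those of all rows.

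**Figure D1:**
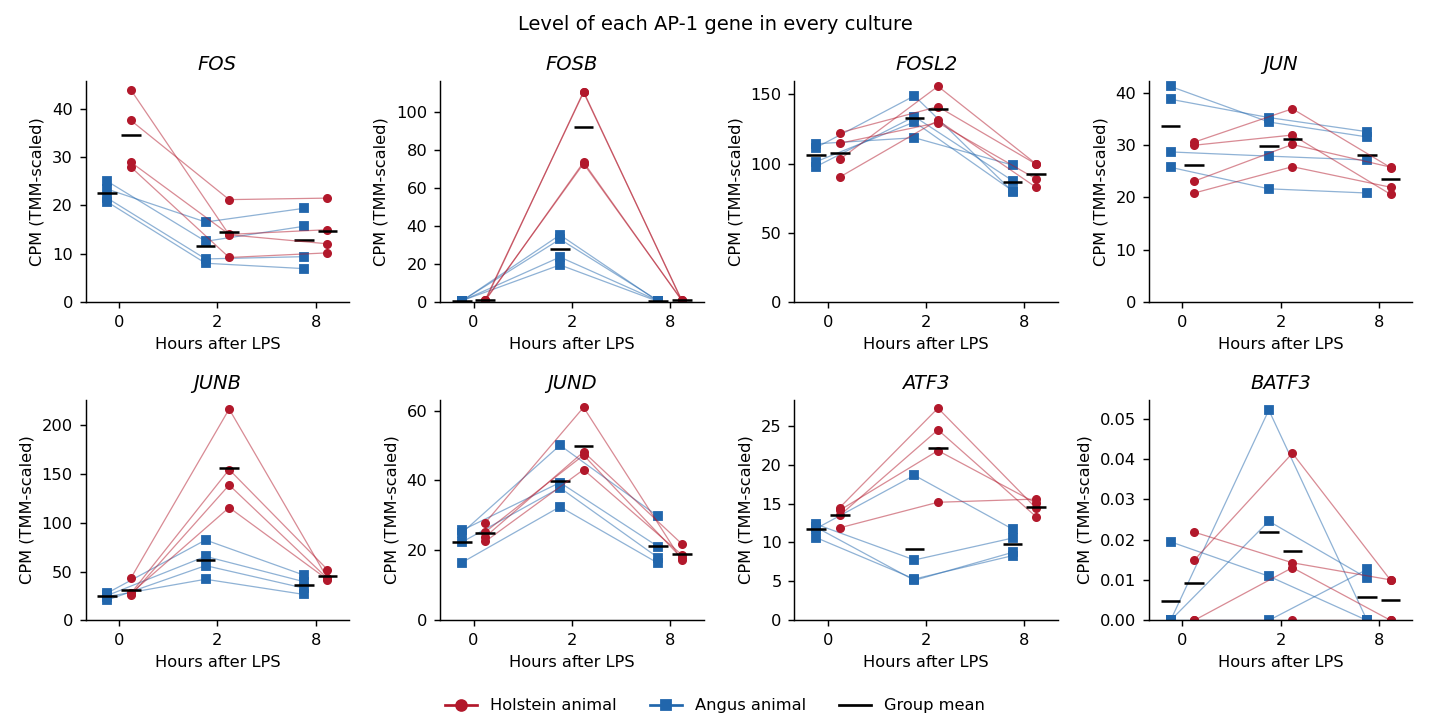
Level of each AP-1 gene in TMM-scaled CPM (vertical axes, linear, from 0, with a scale of its own in each panel) at 0, 2 and 8 h (horizontal axes, hours evenly spaced) in every culture, with a line per animal and a black bar for the mean of the 4 animals. FOSB stands near 0 except at 2 h, where the 4 Holstein points lie between 72.7 and 110.6 CPM and the 4 Angus points between 19.4 and 35.2 CPM, while FOS is at its highest before LPS.

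FOS (chromosome 10, 86883739 to 86887170, plus strand, on the UMD v3.1 build used for every position here) encodes the founding FOS protein and is a standard immediate-early gene. Before LPS its level was 29.0, 28.0, 37.6 and 44.0 CPM in Holstein animals 1 to 4, against 21.5, 25.02, 23.4 and 20.7 CPM in Angus animals 1 to 4. By 2 h it was 14.0, 9.21, 21.2 and 13.9 CPM in the Holstein cultures, against 8.91, 12.6, 16.6 and 8.02 CPM in the Angus cultures. At 8 h it was 15.0, 10.2, 21.5 and 12.1 CPM in the Holstein cultures, against 9.38, 15.7, 19.4 and 6.91 CPM in the Angus cultures. FOS was thus lower after LPS than before it in all 8 animals at both hours. In the combined fit it fell 2.19-fold by 2 h (log2 fold change -1.13, SE 0.21, FDR = 2.9e-06) and was 2.08-fold below 0 h at 8 h (-1.05, SE 0.23, FDR = 1.4e-04). Between 2 h and 8 h the difference was 0.08 (SE 0.25, FDR = 0.87), with a 95% interval from -0.40 to 0.57. The fall was called in Holstein at 2 h (-1.25, SE 0.25, FDR = 1.6e-05) and 8 h (-1.23, SE 0.24, FDR = 2.0e-05). In Angus the 2 h value of -0.97 (SE 0.23, FDR = 7.9e-04) was just under the fold limit and the 8 h value of -0.81 (SE 0.30) had an FDR of 0.12. When the animal entered as a replicate block, the Angus value at 2 h became -1.02 (FDR = 3.2e-10), and without Angus animal 3 the values were -1.18 (FDR = 2.0e-06) at 2 h and -1.06 (FDR = 0.021) at 8 h. Over all alternatives the FDR in Angus ran from 3.2e-10 to 0.039 at 2 h and from 3.8e-05 to 0.60 at 8 h. The combined 8 h value fell below the fold limit without Holstein animal 4 (-0.90) and without the samples with other counting of COL1A1 (-0.97).

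FOSB (chromosome 18, 53501995 to 53508418, plus strand) encodes a close relative of FOS, and a shorter splice form of it lacks the activating end of the protein. Its counts cannot separate these forms, since a row spans the whole gene, introns included. Before LPS it was at 0.508, 0.670, 1.15 and 1.18 CPM in Holstein animals 1 to 4, against 0.498, 0.431, 0.503 and 0.594 CPM in Angus animals 1 to 4. At 2 h the levels were 110.6, 73.5, 72.7 and 110.1 CPM in the Holstein cultures, against 23.6, 35.2, 33.0 and 19.4 CPM in the Angus cultures, so that every Holstein sample lay above every Angus sample. At 8 h FOSB was back at 0.517 to 0.928 CPM in Holstein, and at 0.209 to 0.650 CPM in Angus, and the ranges of each breed overlapped those at 0 h. The rise at 2 h within an animal was 63.3- to 217.9-fold in Holstein and 32.7- to 81.6-fold in Angus. The fitted log2 fold change was 6.44 (SE 0.37, FDR = 6.9e-41) with the breeds combined, 6.71 (SE 0.27, FDR = 7.3e-89) in Holstein and 5.78 (SE 0.25, FDR = 1.0e-87) in Angus. From 2 h to 8 h FOSB fell by 6.67 on the log2 scale (SE 0.39, FDR = 9.4e-39) in the combined fit. Fitted without a filter on low counts, the 8 h level differed from that at 0 h by -0.24 (FDR = 0.79), and with a filter of 10 counts by -0.24 (FDR = 0.76).

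FOSL2 (chromosome 11, 71329772 to 71349193, minus strand), which encodes FRA2, a FOS protein without a strong activating domain, had the largest counts of the 8 genes. It stood at 90.3 to 122.3 CPM in Holstein and 97.9 to 114.3 CPM in Angus before LPS, at 129.6 to 155.9 and 118.7 to 149.0 CPM at 2 h, and at 82.8 to 99.7 and 79.8 to 98.9 CPM at 8 h. FOSL2 was higher at 2 h than at 0 h and lower at 8 h than at 0 h in all 8 animals, by small amounts. The combined changes were 0.35 at 2 h (SE 0.08, FDR = 3.4e-04) and -0.25 at 8 h (SE 0.09, FDR = 0.032), under the fold limit of the call. Without the samples with other counting the 8 h value was -0.16 (FDR = 0.34). Over all alternatives the FDR at 8 h ran from 7.3e-05 to 0.34. From 2 h to 8 h the log2 difference was -0.59 (SE 0.08, FDR = 2.4e-11), or 1.51-fold, also under the fold limit.

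JUN (chromosome 3, 87841042 to 87843089, plus strand) encodes c-JUN, the most active of the JUN proteins as a homodimer and a substrate of the JNK kinases. Its level before LPS was 23.1, 30.5, 20.8 and 29.9 CPM in Holstein animals 1 to 4, against 38.7, 28.7, 25.7 and 41.2 CPM in Angus animals 1 to 4. After 2 h it was 30.1, 36.9, 25.8 and 31.9 CPM in the Holstein cultures, against 35.2, 27.9, 21.6 and 34.4 CPM in the Angus cultures. JUN was therefore higher at 2 h than at 0 h in 4 of 4 Holstein animals and lower in 4 of 4 Angus animals, although the group ranges overlapped. The fitted changes were 0.25 in Holstein (SE 0.17, FDR = 0.37) and -0.17 in Angus (SE 0.21, FDR = 0.75), and the FDR of the Holstein change ran from 8.4e-04 to 0.74 over the alternatives. With the animal as block it was 0.26 (SE 0.07, FDR = 8.4e-04), and without the samples with other counting it was 0.51 (FDR = 0.028), in each case under the fold limit. The block gave -0.16 in Angus (SE 0.08, FDR = 0.074), whereas without the samples with other counting the Angus value changed sign to 0.067 (FDR = 0.89). The combined change was 0.03 with a 95% interval from -0.26 to 0.33 (FDR = 0.94). At 8 h JUN was 20.5 to 25.8 CPM in Holstein and 20.8 to 32.5 CPM in Angus. The combined 8 h change of -0.21 (SE 0.15, FDR = 0.41) was likewise not called. From 2 h to 8 h JUN was lower in all 8 animals, with a log2 change of -0.41 in Holstein (SE 0.14, FDR = 0.016) and -0.08 in Angus (SE 0.20, FDR = 0.90), both under the fold limit.

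JUNB (chromosome 7, 13851114 to 13852933, minus strand) encodes a JUN protein that activates less strongly than c-JUN at many single AP-1 elements. Before LPS it was at 27.7, 25.8, 27.8 and 43.4 CPM in Holstein animals 1 to 4, against 25.6, 20.9, 28.1 and 24.4 CPM in Angus animals 1 to 4. At 2 h it reached 154.8, 138.9, 115.8 and 216.8 CPM in the Holstein cultures, against 65.7, 56.2, 82.5 and 42.2 CPM in the Angus cultures. At 8 h it was 52.2, 43.1, 41.9 and 43.2 CPM in the Holstein cultures, against 39.7, 33.1, 46.5 and 26.7 CPM in the Angus cultures. All 8 animals had more JUNB at 2 h than at 0 h, by 4.17- to 5.58-fold in Holstein and 1.73- to 2.94-fold in Angus, ranges that did not overlap. JUNB rose 3.91-fold by 2 h in the combined fit (log2 1.97, SE 0.28, FDR = 8.9e-10), 5.01-fold in Holstein (2.32, SE 0.23, FDR = 3.8e-20) and 2.51-fold in Angus (1.33, SE 0.21, FDR = 5.1e-08). By 8 h it had fallen again, by 1.41 on the log2 scale from 2 h (SE 0.28, FDR = 1.4e-05), and remained 1.46-fold above 0 h (0.55, SE 0.15, FDR = 0.0052), which is under the fold limit. Within the breeds the 8 h value against 0 h was 0.54 in Holstein (SE 0.18, FDR = 0.020) and 0.57 in Angus (SE 0.19, FDR = 0.057). The drop from 2 h to 8 h was called in Holstein (-1.80, SE 0.19, FDR = 9.0e-19), while the Angus value of -0.75 (SE 0.25, FDR = 0.025) was under the fold limit. At 8 h it was above its 0 h level in 7 of 8 animals, the exception being Holstein animal 4, which had the highest level at 0 h. That 0 h sample is among those with other counting of COL1A1.

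JUND (chromosome 7, 4859846 to 4861601, plus strand) encodes a JUN protein that most resting cells already hold. Its level before LPS was 23.9, 25.3, 22.6 and 27.9 CPM in Holstein animals 1 to 4, against 24.96, 16.5, 25.7 and 22.3 CPM in Angus animals 1 to 4. After 2 h it was 48.2, 47.2, 43.1 and 60.9 CPM in the Holstein cultures, against 50.1, 32.5, 39.4 and 37.9 CPM in the Angus cultures, above the 0 h level in all 8 animals. The 2 h levels of each breed did not overlap its 0 h levels. The fitted change of 0.93 (SE 0.13, FDR = 2.3e-10) was 1.90-fold and thus short of the fold limit, as were 0.997 in Holstein (SE 0.13, FDR = 3.9e-12) and 0.84 in Angus (SE 0.19, FDR = 2.8e-04). The Holstein value lay so close to the limit that DESeq2 (1.001) and edgeR with other scaling (1.001) called it, and without the samples with other counting it was 1.11. At 8 h JUND was at 17.1 to 21.9 CPM in Holstein and 16.3 to 29.7 CPM in Angus. The log2 change from 2 h to 8 h was -1.16 in the combined fit (SE 0.14, FDR = 2.8e-13) and -1.401 in Holstein (SE 0.13, FDR = 1.2e-22), both called, and -0.90 in Angus (SE 0.22, FDR = 0.0010). Against 0 h, the 8 h value was -0.39 in Holstein (SE 0.12, FDR = 0.0092), lower in 4 of 4 animals and under the fold limit, and -0.06 in Angus (SE 0.23, FDR = 0.96). Without the samples with other counting the Holstein value was -0.28 (FDR = 0.31). Over all alternatives the FDR in Holstein ran from 0.0013 to 0.31.

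ATF3 (chromosome 16, 72820023 to 72832974, minus strand) encodes a stress-induced bZIP protein that represses many targets as a homodimer and is known to limit Toll-like receptor responses in macrophages. Before LPS it was at 14.1, 14.5, 11.9 and 13.5 CPM in Holstein animals 1 to 4, against 10.6, 12.3, 11.8 and 11.95 CPM in Angus animals 1 to 4. At 2 h it was 21.8, 27.2, 15.2 and 24.5 CPM in Holstein. In Angus at 2 h it was 5.31, 7.76 and 5.14 CPM in animals 1, 2 and 4, all below the 0 h level, but 18.6 CPM in animal 3. ATF3 was therefore higher at 2 h in 4 of 4 Holstein animals and in 1 of 4 Angus animals. The 2 h sample of Angus animal 3 is among those with other counting of COL1A1. Its 0 h and 8 h samples, at 11.8 and 11.7 CPM, are not. Whether the counting bears on the 2 h value was not tested. The Holstein change was 0.71 (SE 0.18, FDR = 0.0010), or 1.64-fold, and under the fold limit. The Angus change was -0.33 (SE 0.40, FDR = 0.73), and without Angus animal 3 it was -0.93 (FDR = 6.2e-04), where the FDR over the other alternatives reached 0.96. At 8 h ATF3 was 13.3 to 15.6 CPM in Holstein and 8.31 to 11.7 CPM in Angus, and its combined change from 0 h was -0.04 (SE 0.14, FDR = 0.91). From 2 h to 8 h the Holstein value was -0.61 (SE 0.18, FDR = 0.0048), under the fold limit, and the Angus value was 0.10 (SE 0.41, FDR = 0.95).

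**Figure D2:**
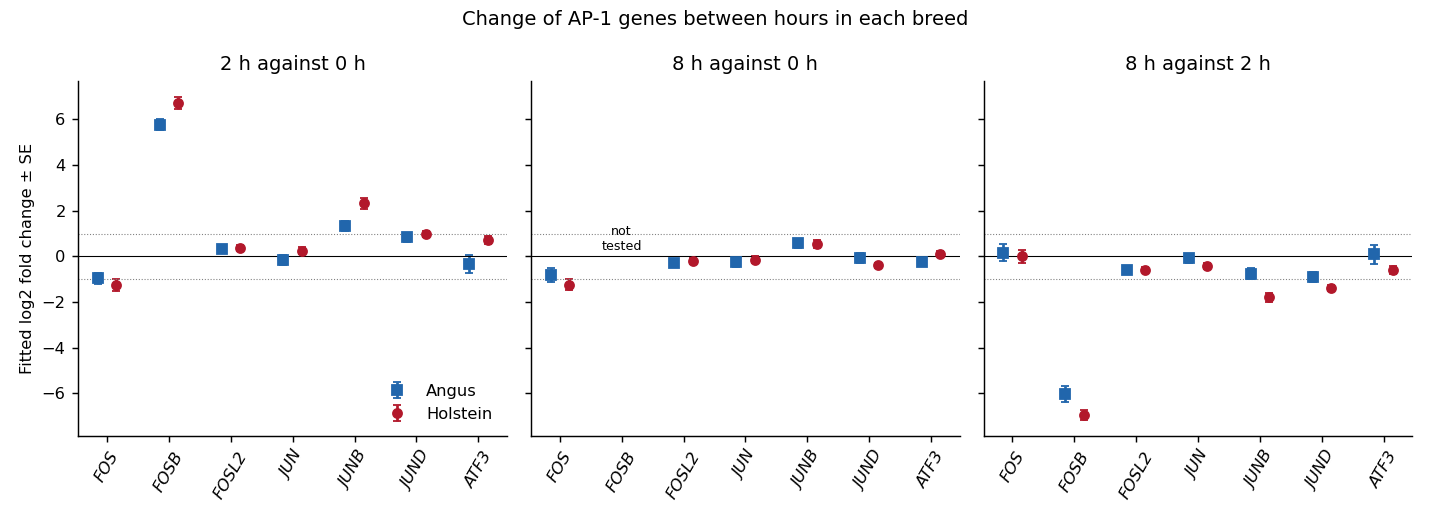
Fitted log2 fold change with its standard error (vertical axis) of the 7 AP-1 genes tested (horizontal axes) between the hours, in Holstein (circles) and Angus (squares), from fits on 4 against 4 samples, with dotted lines at the fold limit of 2. FOSB has the largest changes, which at 2 h are 6.71 in Holstein and 5.78 in Angus, and JUNB is the other gene above the upper line in both breeds.

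Holstein was next set against Angus hour by hour, to see which AP-1 genes differed before LPS and which after it. At 0 h none of 6 genes was called, where 3.82% of 20385 rows were called, and neither edgeR's F test nor DESeq2 called any. The gene with an unadjusted p under 0.05 was FOS. FOS was 1.54-fold higher in Holstein (log2 0.62, SE 0.16, FDR = 0.0032), every Holstein sample lay above every Angus sample, and the difference was under the fold limit. Without the samples with other counting, which include Holstein animals 2 and 4, its log2 difference was 0.52 (FDR = 0.097), and over all alternatives the FDR ran from 0.0011 to 0.14. FOSB was not tested at 0 h under the filter, and without a filter its difference was 0.78 (FDR = 0.17), or 0.79 with a filter of 10 counts (FDR = 0.11). The sum of the melanocyte markers also differed between the breeds, which at 0 h was 10.4 to 11.5 CPM for Angus but 5.80 to 7.88 CPM for Holstein, with MLANA under 0.111 CPM in every sample. At 2 h the ranges overlapped, with 6.12 to 7.85 CPM for Angus and 5.64 to 6.37 CPM for Holstein, and at 8 h they were 9.37 to 12.1 and 6.49 to 8.34 CPM. The part of these markers in the differences between breeds or hours was not tested.

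At 2 h, 3 of 7 AP-1 genes were called, all of them higher in Holstein, where 4.45% of 20184 rows were called. FOSB was 3.29-fold higher (1.72, SE 0.24, FDR = 6.5e-10) and JUNB 2.53-fold higher (1.34, SE 0.25, FDR = 8.4e-06), and for both the samples of the breeds did not overlap. Leaving out any one animal kept both calls, with values of 1.58 to 1.86 for FOSB and 1.15 to 1.52 for JUNB. Without Holstein animal 1, the animal with the high keratinocyte markers, they were 1.61 and 1.35. ATF3 was 2.40-fold higher (1.27, SE 0.41, FDR = 0.018), but Angus animal 3 lay above the lowest Holstein sample. That Angus sample is the only 2 h sample with other counting of COL1A1. The call of ATF3 was lost with edgeR's F test (FDR = 0.063) and when Angus animals 1, 2 or 4 or Holstein animals 2 or 4 were left out (FDR from 0.066 to 0.078), whereas without Angus animal 3 the difference was 1.87 (FDR = 5.0e-11), so that the FDR over all alternatives ran from 5.0e-11 to 0.078. FOS (0.34, FDR = 0.47), FOSL2 (0.07, FDR = 0.74), JUN (0.06, FDR = 0.84) and JUND (0.32, FDR = 0.18) were not called at 2 h. Their 95% intervals ran from -0.26 to 0.93 for FOS, from -0.16 to 0.30 for FOSL2, from -0.29 to 0.42 for JUN and from -0.01 to 0.65 for JUND.

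At 8 h none of 6 genes was called between the breeds, where 3.25% of 20679 rows were called, and neither of the other tests called any. ATF3 was the gene with an unadjusted p under 0.05. It was 1.49-fold higher in Holstein (0.57, SE 0.15, FDR = 0.0025), with no overlap between the breeds, and under the fold limit. Over all alternatives its FDR ran from 8.9e-05 to 0.14. JUNB differed by 0.31 (SE 0.17, FDR = 0.22), with an interval from -0.03 to 0.65. FOSB, fitted without a filter, differed by 0.83 (FDR = 0.23), or 0.81 with a filter of 10 counts (FDR = 0.18).

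Whether the LPS response itself differed between the breeds was tested as the interaction of breed and hour. At 2 h none of 7 AP-1 genes was called, where 0.278% of 20157 rows were called. An unadjusted p under 0.05 was found for 3 of them, FOSB, JUNB and ATF3, and neither edgeR's F test nor DESeq2 called any. The Holstein change minus the Angus change was 1.01 for JUNB (SE 0.33, FDR = 0.25), 1.05 for ATF3 (SE 0.46, FDR = 0.89) and 0.94 for FOSB (SE 0.38, FDR = 0.70). In the fit with the animal as a replicate block, which compares each culture with itself, JUNB was called at 1.04 (SE 0.17, FDR = 3.0e-07) and ATF3 at 1.25 (SE 0.35, FDR = 0.015). JUN also passed the FDR limit in that fit, at 0.44 (SE 0.10, FDR = 6.3e-04), under the fold limit, and FOSB reached 1.00 (SE 0.36, FDR = 0.097). Without the samples with other counting, JUNB (1.35, FDR = 0.034) and ATF3 (1.69, FDR = 9.5e-04) were called in the fit without the block. ATF3 was also called without Angus animal 3 (1.64, FDR = 9.8e-06). Both settings leave out the 2 h sample of Angus animal 3, so for ATF3 they are not separate checks. Over all alternatives the FDR ran from 3.0e-07 to 0.87 for JUNB, from 9.8e-06 to 1.0 for ATF3, from 6.3e-04 to 1.0 for JUN and from 0.097 to 1.0 for FOSB. FOS (-0.28), FOSL2 (0.05) and JUND (0.16) had FDR values of 0.58 or higher with and without the block.

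The interaction at 8 h called none of 6 AP-1 genes, where 0.0982% of 20368 rows were called. No gene had an unadjusted p under 0.05, and edgeR's F test, DESeq2 and the fit with the block called none either. The values ranged from -0.43 for FOS (SE 0.41) to 0.34 for ATF3 (SE 0.18).

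**Figure D3:**
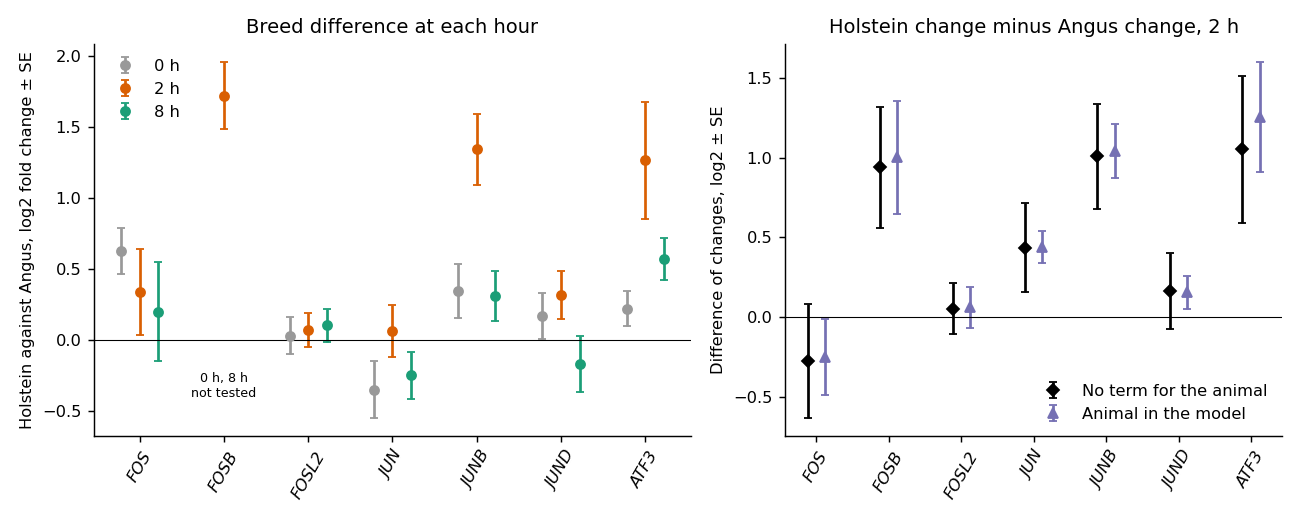
Left, Holstein against Angus at 0, 2 and 8 h for the 7 AP-1 genes tested, as fitted log2 fold change with its standard error, where values above 0 are higher in Holstein. Right, the Holstein change minus the Angus change from 0 h to 2 h on the log2 scale with its standard error, without (diamonds) and with (triangles) a term for the animal, where JUNB stands at 1.01 and 1.04 and the term narrows its error from 0.33 to 0.17.

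The make-up of the families was compared on CPM per kilobase of row, the scale on which levels of different genes can be set side by side, with the limit that rows include introns. Before LPS, FOSB was at 0.00921 to 0.0163 of the FOS level in all 8 cultures. At 2 h it was at 1.06 to 1.5 times the FOS level in Angus and 1.83 to 4.26 times in Holstein, so FOSB exceeded FOS in every culture. By 8 h the ratio was 0.00916 to 0.0383. Within the JUN family, JUNB stood at 0.667 to 1.23 times the JUN level in Angus and 0.950 to 1.63 times in Holstein at 0 h. At 2 h it was 1.38 to 4.30 and 4.23 to 7.65 times, respectively. JUND to JUN moved less, from 0.633 to 1.27 at 0 h over both breeds to 1.29 to 2.23 at 2 h.

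In the order of group means, Holstein at 2 h came first for FOSB, FOSL2, JUNB, JUND and ATF3, while Holstein at 0 h came first for FOS and Angus at 0 h for JUN. For FOSB the first 3 places, Holstein at 2 h, Angus at 2 h and Holstein at 0 h, did not overlap, and the last 4 groups overlapped their neighbours. For JUNB only the first place was separate from the next, and for FOS likewise. For JUND the gap lay between Angus at 2 h and Holstein at 0 h. The 6 groups of FOSL2, JUN and ATF3 each overlapped their neighbours throughout.

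AP-1 proteins also pair or compete with other bZIP factors, and 30 of these were listed, of which 25 were tested at 2 h with the breeds combined. At 2 h 4 rose and 1 fell by the call rule, which 2.82% of all rows passed, with a median log2 change of 0.02 in the list and -0.004 over all rows. FOSL1, which encodes the FOS relative FRA1, rose most (2.12, SE 0.38, FDR = 1.5e-06), followed by MAFF, a small MAF protein (1.41, SE 0.19, FDR = 1.7e-11), and BACH1, a heme-sensing repressor (1.05, SE 0.20, FDR = 3.2e-06). NFIL3, a repressor that the circadian clock also uses, was the one called lower (-1.26, SE 0.12, FDR = 3.3e-23). DDIT3, the stress gene CHOP, had -0.99 (SE 0.16, FDR = 4.6e-08) and was just under the fold limit, a value given after it was seen. At 8 h, 2 of 26 were called, against 1.42% of all rows, CEBPD (1.15, SE 0.27, FDR = 5.3e-04) and MAFF (1.13, SE 0.20, FDR = 2.4e-06), both higher.

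FOSL1 is the FOS family gene outside the 8. It went from 9.96 to 16.2 CPM in Holstein and 23.6 to 91.5 CPM in Angus at 0 h to 119.7 to 156.6 and 118.7 to 178.2 CPM at 2 h. FOSL1 was lower in Holstein at 0 h (-1.92, SE 0.38, FDR = 9.2e-05) and at 8 h (-1.06, SE 0.17, FDR = 3.5e-07), the 1 call among 26 partners at each of these hours, a share close to the 3.82% and 3.25% of all rows. At 2 h the 1 call among 25, where 4.45% of all rows were called, was MAFK, another small MAF protein, higher in Holstein (1.202, SE 0.21, FDR = 1.5e-06). FOSL1 was also the 1 of 25 partners called in the 2 h interaction, against 0.278% of all rows, with the larger rise in Holstein (1.81, SE 0.44, FDR = 0.014), a value chosen after it was seen.

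**Figure D4:**
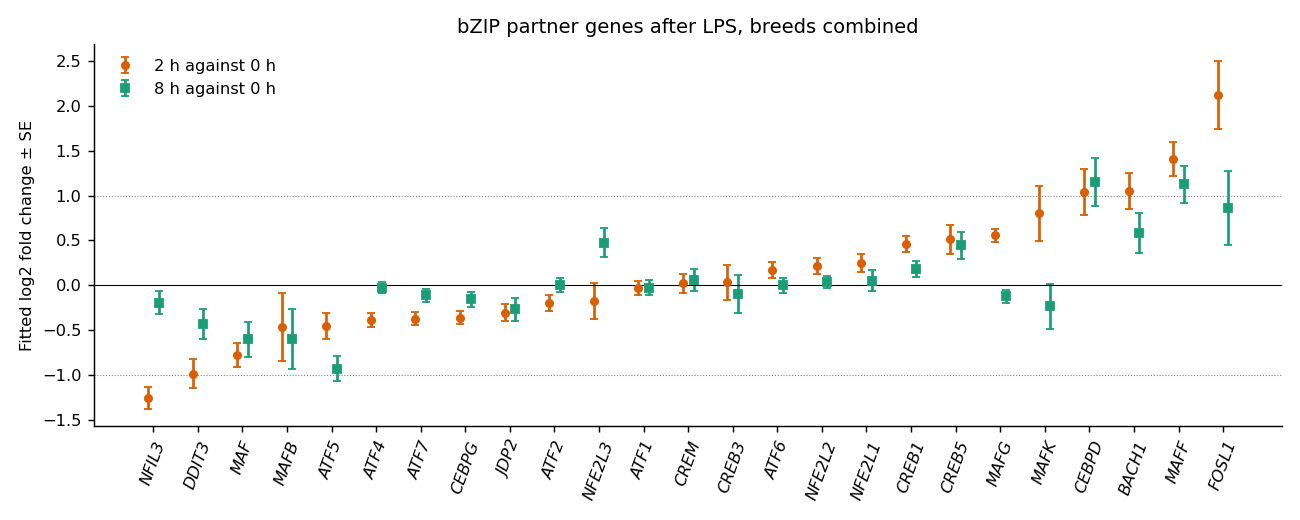
Fitted log2 fold change with its standard error (vertical axis) at 2 h (circles) and 8 h (squares) against 0 h, breeds combined, for the 25 bZIP partner genes tested at 2 h (horizontal axis, ordered by the 2 h value), with dotted lines at the fold limit of 2. FOSL1, MAFF, BACH1 and CEBPD lie above the upper line and NFIL3 below the lower line at 2 h, and most partners lie between the lines at both hours.

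Of 38 kinases and transcription factors that act upstream of the FOS and JUN genes, all 38 were tested at 2 h with the breeds combined, where 3 rose and none fell by the call rule, against 2.82% of all rows, with a median change of 0.05 (-0.004 over all rows). They were MAP3K8, the kinase TPL2 that links Toll-like receptors to ERK (2.39, SE 0.41, FDR = 6.3e-07), MAP2K3, an activator of p38 (1.28, SE 0.09, FDR = 2.4e-44), and MAP3K11 (1.17, SE 0.13, FDR = 1.4e-17). At 8 h, 2 of 38 were called, against 1.42% of all rows, both lower, MAPK11 (-1.04, SE 0.19, FDR = 5.7e-06) and RPS6KA1 (-1.001, SE 0.33, FDR = 0.028). Between the breeds 1 of 38 was called at 0 h, 2 of 37 at 2 h and 1 of 38 at 8 h, shares close to the 3.82%, 4.45% and 3.25% of all rows. MAPK13, a p38 kinase, was higher in Holstein at all 3 hours (3.50, 5.18 and 2.88, FDR of 0.018 or lower), with 1.66 to 4.03 CPM there and 0 to 0.7001 CPM in Angus, so that it passed the filter only through its Holstein samples. MAPK12 was the other call, at 2 h (1.14, SE 0.33, FDR = 0.0060).

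Of 27 genes known from textbooks as AP-1 targets, 20 were tested at 2 h with the breeds combined, and 10 rose while none fell by the call rule, against 2.82% of all rows, with a median change of 0.92 (-0.004 over all rows). IL6 and IL8 were below 1 CPM in all 8 samples at 0 h, and so passed the filter only through the samples with LPS. HBEGF reached 1 CPM in 2 of 8 samples at 0 h and in 8 of 8 at 2 h. IL6, IL8 and HBEGF are among the 10 that rose. This list, like those of the partners and upstream genes, was chosen with earlier results of these data known. Its share of calls is therefore a description. Several of its genes, IL6 and IL8 among them, are targets of NF-kB as well. The neutrophil-attracting chemokine IL8 went from 0.0552 to 0.245 CPM at 0 h to 13.7 to 96.4 CPM at 2 h, and its 0 h levels were close to the limit of detection. IL6 (6.46, SE 0.58, FDR = 1.4e-16) and PTGS2, which encodes cyclooxygenase-2 (4.84, SE 0.34, FDR = 1.2e-31), followed. At 8 h, 6 of 20 were called, against 1.42% of all rows, all higher, led by IL8, IL6 (6.97, SE 0.48, FDR = 1.3e-26) and CCL2 (3.87, SE 0.48, FDR = 2.1e-10), and the median was 0.41 (-0.007 over all rows).

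Between the breeds, HMOX1, the heme oxygenase gene, was the target called lower in Holstein at every hour, with log2 differences of -1.29, -1.42 and -1.19 at 0, 2 and 8 h (FDR of 3.3e-08 or lower). It was the 1 call among 17 targets tested at 0 h, where 3.82% of all rows were called. PLAU, which encodes urokinase and is named here after its values were seen, was also below every Angus sample in all Holstein samples at each hour, with differences of -0.83, -0.88 and -0.89 (FDR of 8.0e-06 or lower) under the fold limit. At 2 h 2 of 20 targets were called and at 8 h 4 of 20, against 4.45% and 3.25% of all rows. LIF, a cytokine of the IL6 family, was higher in Holstein at 2 h (2.02, SE 0.58, FDR = 0.0083) and 8 h (2.42, SE 0.56, FDR = 0.0012). At 8 h IL8 (2.20, SE 0.51, FDR = 0.0011) and CCL2 (1.55, SE 0.35, FDR = 5.3e-04) were also higher in Holstein.

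For each AP-1 gene the rows most like it were sought among 12884 rows with a gene symbol, by Pearson's r of log2(CPM + 1) over the 24 samples. These 24 points share 8 animals and 3 hours, so r is a description. FOSB was most like NFATC1, PPM1D and BCOR, with r of 0.975 for each. JUNB was most like LOC100337034 (0.963), SEC16A (0.958) and IER3 (0.956). JUND was closest to VPS37B (0.960), PPP1R37 (0.937) and BCAR1 (0.936), and FOSL2 to DNAJA4 (0.902), BAHD1 (0.898) and LOC100336675 (0.896).

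The r values of ATF3, FOS and JUN were lower. ATF3 was most like MXD1 (0.857), ARHGEF2 (0.856) and CNNM4 (0.855), FOS like TP53INP1 (0.841), CHIC1 (0.839) and PIK3C2B (0.835), and JUN like ABCB8 (0.791), XRCC3 (0.789) and TMEM109 (0.788). After the group means were removed, which leaves the differences between animals, r was 0.87 for JUNB with IER3, 0.83 for JUND with VPS37B, 0.87 for JUN with TMEM109 and 0.34 to 0.60 for FOSB with its 3 genes.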

How the data were processed

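Dermal fibroblasts from 4 Holstein and 4 Angus heifers were sampled at 0, 2 and 8 h of LPS, which gave 24 RNA-Seq libraries. Per the labels and the study's methods, the authors used CASAVA 1.7 and NextGENe 2.3.4, kept reads of at least 25 bp with a median quality of at least 20 and at most 3 uncalled bases, and aligned them to the bovine genome UMD v3.1 with at least 85% of the read length matching. Total counts per sample were 51014538 to 104406293. The deposited tables give raw read counts per interval, genes and intervals without a symbol alike, and an average coverage per base (signal), which was used here only to find the covered bases per count. Rows without a symbol held 12.28 to 20.53% of the counts and stayed in library sizes and tests.

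Counts were fitted in edgeR 4.0.16 (R 4.3.3) by a generalized linear model with TMM scaling and the likelihood-ratio test, each comparison on its own samples, with Benjamini-Hochberg adjustment over all rows at or above 1 CPM in at least 50% of samples. The alternatives were edgeR's F test, DESeq2 1.42.0, another scaling, other filters, one fit over all samples, rows with a symbol only, samples or animals left out, and the animal as a block. Deviations from group means paired the cultures: r was 0.545 to 0.744 between 0 h and 2 h of the same animal and -0.583 to 0.221 between animals, and 0.538 to 0.751 against -0.573 to 0.274 between 0 h and 8 h. In all 36 pairs of replicates a chi-square test of the counts gave 33 to 461.2 per degree of freedom, more than sampling noise gives. Fits were tested on simulated data.

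The genes and lists were chosen with earlier results of these data known. All 8 AP-1 genes are named, and of each list up to 3 called genes with the largest fold change per direction. Promoter and protein sequences were not analysed here.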

Additional observations from a re-analysis of the deposited data

Results flagged for a closer look

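The JUNB level of Holstein animal 4 at 0 h, 43.4 CPM, stood apart from the other 3 animals at 25.8 to 27.8 CPM, with a gap of 0.888 of the group's range, past Dixon's limit. That sample is among those with other counting of COL1A1 and had the fewest total counts, 51014538. The JUNB level of Holstein animal 1 at 8 h, 52.2 CPM, stood apart from 41.9 to 43.2 CPM with a gap of 0.873. Each AP-1 gene but BATF3 was looked at in this way in 6 groups, 42 in all, and chance flags about 1 in 20, a rate near that found here.

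In the fit with a replicate block for the animal, the change from 0 h to 2 h differed between the breeds for JUN, JUNB and ATF3. The Holstein change minus the Angus change on the log2 scale was 0.44 for JUN (FDR = 6.3e-04), whose level was higher in 4 of 4 Holstein and lower in 4 of 4 Angus animals. It was 1.04 for JUNB (FDR = 3.0e-07), higher in all 8 animals, and 1.25 for ATF3 (FDR = 0.015), higher in 4 of 4 Holstein and 1 of 4 Angus animals. Without the samples with other counting of COL1A1, the fitted JUN change in Angus was 0.067 (FDR = 0.89), with no block.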

How the results depend on the processing

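Of the fitted log2 changes of the AP-1 genes under the alternatives that left out no single animal, 763 kept their direction and their side of the call, 13 passed it, 2 lost it and 8 changed sign. With the FDR limit alone, without the fold limit, the genes called were 5 at 2 h with the breeds combined, 6 in Holstein and 5 in Angus, 3 at 8 h combined and 3 in Holstein, 6 in Holstein and 4 in Angus between 2 h and 8 h, and 1 between the breeds at 0 h and 1 at 8 h, where 12.2 to 23.3% of all rows passed. In one fit over all samples 1 was called at 2 h in Angus and 0 in Angus between 2 h and 8 h, because FOSB was not tested there. Without the samples with other counting of COL1A1, 0 were called at 8 h combined, 0 in Angus between 2 h and 8 h, where FOSB was not tested, and 2 in the 2 h interaction.

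With the animal as a replicate block, 2 were called in the 2 h interaction (JUNB at 1.04 and ATF3 at 1.25). FOS was then also called at 2 h in Angus (-1.02), and the block changed no other call of an AP-1 gene. At the FDR limit alone, 48 tests of AP-1 genes passed with the block and 36 without it, over 11 comparisons. Over all rows it raised the calls of the interaction from 56 to 126 at 2 h and from 20 to 100 at 8 h. Under the alternatives that left out no single animal, 28 counts of calls over all rows moved by over 1.5 times and 107 did not. By Spearman's rho, 0 of the 3 most similar rows were shared for FOSB and ATF3, 1 for JUN and JUNB and 2 for FOS, FOSL2 and JUND, and with a pseudocount of 0.1 CPM all 3 were shared for FOS, FOSB, FOSL2, JUN, JUNB, JUND and ATF3. The block was not run between the breeds, whose animals are not paired.

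Some values that were not called changed sign. Without the samples with other counting these were JUN at 2 h in Angus (0.067) and at 8 h in Holstein (0.12), ATF3 at 8 h combined (0.022), FOSL2 between the breeds at 0 h (-0.11), JUN between the breeds at 2 h (-0.056), and the interaction of FOS at 2 h (0.044) and JUNB at 8 h (0.15). With the block it was the interaction of JUNB at 8 h (0.0094). The cause was not tested.

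When 1 animal was left out at a time, the genes called ranged from 0 to 1 at 8 h combined, at 8 h in Angus and in the 2 h interaction. Values that changed sign ranged from -0.013 to 0.089 for JUN at 2 h combined, from -0.11 to 0.0060 for ATF3 at 8 h combined, and from -0.21 to 0.013 for JUND at 8 h in Angus. From 2 h to 8 h they ranged from -0.017 to 0.076 for FOS in Holstein and from -0.053 to 0.60 for ATF3 in Angus. Between the breeds they ranged from -0.041 to 0.11 for FOSL2 at 0 h, from -0.056 to 0.16 for JUN at 2 h, and at 8 h from -0.054 to 0.46 for FOS and from -0.28 to 0.035 for JUND. In the interaction they ranged from -0.045 to 0.12 for FOSL2 at 2 h, and at 8 h from -0.0069 to 0.24 for JUN and from -0.17 to 0.19 for JUNB.

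With 4 animals per breed and no LPS-free cultures at 2 h and 8 h, breed differences rest on few animals, and LPS and time cannot be told apart. BATF3 was too low to be compared at this depth.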

Other observations

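Several AP-1 genes border intervals without a gene symbol that also held reads. The interval before FOSB (chromosome 18, 53466228 to 53501994) had 0.510 to 0.667 CPM in Angus at 0 h, against 1.02 to 1.77 CPM in Holstein, and then stood at 3.87 to 6.94 and 12.6 to 18.9 CPM at 2 h, and at 0.474 to 0.740 and 0.814 to 1.00 CPM at 8 h. It rose by 3.49 on the log2 scale at 2 h with the breeds combined (SE 0.36, FDR = 1.6e-16), fell by 3.80 from 2 h to 8 h (SE 0.32, FDR = 1.0e-23) and was higher in Holstein at 2 h (1.53, SE 0.23, FDR = 3.3e-08).

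The interval after JUND (chromosome 7, 4861602 to 4875572) rose by 1.19 at 2 h (SE 0.19, FDR = 1.8e-08) and fell by 1.88 from 2 h to 8 h (SE 0.19, FDR = 1.5e-20). The interval after FOSL2 (chromosome 11, 71242729 to 71329771) stood at 102.4 to 124.9 CPM in Holstein at 0 h and at 142.3 to 176.3 CPM at 2 h. Its combined changes were 0.43 at 2 h (SE 0.08, FDR = 7.9e-07) and -0.59 from 2 h to 8 h (SE 0.08, FDR = 9.4e-11), under the fold limit. The interval before JUN (chromosome 3, 87839371 to 87841041) was at 5.09 to 16.9 CPM and changed by -0.09 at 2 h (SE 0.20, FDR = 0.85). These intervals were looked at after the data were seen, and whether their reads belong to the transcripts of the AP-1 genes was not tested.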
